A study of Mus musculus with 12 samples.

Results

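The 9 mouse genes described here are widely used to describe alternatively activated or TREM2-bearing macrophages, and were followed across all groups of the study. They are the receptor Trem2 and its adaptor Tyrobp, the endocytic receptors Folr2 and Mrc1, the secreted protein Cd5l, the cytokine Tgfb1 and the matrix protein Tgfbi, and the cytokine receptor chains Il10ra and Il4ra. The genes were named by symbol and found by their Ensembl identifiers. All 9 were among the 25700 genes of the count table and among the 13844 genes with enough counts to be tested.

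The study sequenced RNA of liver macrophages of mice. Digested livers were depleted of hepatocytes by slow centrifugation, and cells that bound beads coated with an antibody to F4/80, a macrophage surface protein, were kept. The preparation is therefore an enrichment by 1 surface protein. The 4 groups of 3 mice were: sph/sph mice given an agonistic anti-CD40 antibody, WT littermates given the same antibody, sph/sph mice given saline, and WT littermates given saline. The antibody dose was 20 mg/kg, injected into the peritoneum 30 h before the cells were taken, and the mice were described as males of 8 to 10 weeks. The sph/sph genotype is a mutation on both copies of the spectrin gene Spta, present in every cell of the animal, and such mice have fragile red cells and haemolytic anaemia. Engaging CD40, which antigen-presenting cells carry on their surface, activates them in an inflammatory way. The series' title speaks of erythrophagocytosis, the engulfment of red cells, and of an anti-inflammatory program, on which the 9 genes bear.

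Macrophages exposed to interleukin-4 or interleukin-13 enter a state called alternative activation, marked by receptors for mannose and folate and by scavenging proteins. TREM2 is a macrophage receptor for lipids and lipoproteins that cannot signal by itself and relies on the adaptor DAP12, the product of Tyrobp. The liver's resident macrophages, called Kupffer cells, carry many of these proteins at rest, CD5L above all, together with receptors for interleukin-10 and TGF-beta, cytokines that restrain inflammation.

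Depth ran from 14991250 to 18984067 counts per library. The count table calls the control genotype heterozygous, whereas the labels call it wild type, and it is called WT here. Its columns carry no replicate number, and libraries are lettered A to C within a group in column order. The A libraries of sph/sph and WT share an identification number within each treatment, whose meaning is not given, and B and C share none. In every group the A library had 0 counts over the 4 Y-linked genes Ddx3y, Eif2s3y, Kdm5d and Uty, against 2436 to 4055 counts in the other 8 libraries, although all mice were labelled male. F4/80 itself, encoded by Adgre1, averaged 1510 ± 635 CPM in sph/sph anti-CD40, 88 ± 73.6 CPM in WT anti-CD40, 1740 ± 270 CPM in sph/sph saline and 1780 ± 184 CPM in WT saline (SD, n = 3 each). Levels are CPM, counts after each library is scaled to one total, which allow 1 gene to be compared between libraries. Changes are edgeR log2 folds with their standard error (SE), and genes with a p under 0.05 after Benjamini-Hochberg adjustment over all genes tested were called.

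The promoters of 7 of the 9 genes were found in RefSeq (GRCm38.p6), each as a window of 250 bases before to 50 after an annotated start. Folr2 has a pair of such windows, which gives 8 in all. The 6 windows of Cd5l, Folr2, Mrc1, Trem2 and Il4ra are printed because 4 of these genes fell furthest under anti-CD40 in WT mice and Il4ra was the one that rose. They read 5′ to 3′ on the gene's strand, and capitals mark matches, on either strand, to any of 6 short motifs: a STAT6-type motif (TTC and GAA with any 4 bases between), a STAT-type motif (the same with any 3 bases between), an NF-kB-type motif (GGGA and TTCC with any 2 bases between), a PU.1-type motif (GAGGAA), a MAF half-site (TGCTGA) and a nuclear receptor half-site (AGGTCA).
Cd5l promoter, chr3:87357631-87357930 (+): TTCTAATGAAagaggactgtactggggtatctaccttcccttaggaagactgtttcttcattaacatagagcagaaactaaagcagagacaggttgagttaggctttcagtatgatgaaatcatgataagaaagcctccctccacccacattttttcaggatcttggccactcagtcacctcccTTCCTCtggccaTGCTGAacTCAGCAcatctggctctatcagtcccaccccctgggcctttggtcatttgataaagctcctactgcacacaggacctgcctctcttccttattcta
Folr2 promoter, chr7:101857141-101857440 (-): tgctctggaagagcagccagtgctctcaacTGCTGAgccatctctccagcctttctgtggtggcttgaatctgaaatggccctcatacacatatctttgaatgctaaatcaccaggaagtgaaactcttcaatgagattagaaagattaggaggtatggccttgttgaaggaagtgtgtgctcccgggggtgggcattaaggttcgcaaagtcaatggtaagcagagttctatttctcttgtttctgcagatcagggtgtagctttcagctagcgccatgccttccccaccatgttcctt
Folr2 promoter, chr7:101845282-101845581 (-): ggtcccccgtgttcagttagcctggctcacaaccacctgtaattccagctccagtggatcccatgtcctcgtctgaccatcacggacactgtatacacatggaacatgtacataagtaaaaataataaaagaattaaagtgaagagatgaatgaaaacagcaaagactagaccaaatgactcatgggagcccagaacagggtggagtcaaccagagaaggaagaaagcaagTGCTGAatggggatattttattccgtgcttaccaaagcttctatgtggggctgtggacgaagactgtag
Mrc1 promoter, chr2:14229164-14229463 (+): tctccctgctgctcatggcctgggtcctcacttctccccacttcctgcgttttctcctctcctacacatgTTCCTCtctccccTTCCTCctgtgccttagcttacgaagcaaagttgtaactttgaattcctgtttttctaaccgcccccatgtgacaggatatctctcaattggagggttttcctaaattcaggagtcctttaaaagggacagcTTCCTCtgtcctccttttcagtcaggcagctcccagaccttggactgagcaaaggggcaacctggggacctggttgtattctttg
Trem2 promoter, chr17:48346151-48346450 (+): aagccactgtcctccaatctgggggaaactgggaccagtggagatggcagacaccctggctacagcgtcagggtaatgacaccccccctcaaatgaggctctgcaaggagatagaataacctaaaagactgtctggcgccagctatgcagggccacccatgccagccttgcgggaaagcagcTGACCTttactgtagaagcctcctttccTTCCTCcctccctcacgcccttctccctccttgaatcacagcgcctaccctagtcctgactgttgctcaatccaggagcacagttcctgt
Il4ra promoter, chr7:125552021-125552320 (+): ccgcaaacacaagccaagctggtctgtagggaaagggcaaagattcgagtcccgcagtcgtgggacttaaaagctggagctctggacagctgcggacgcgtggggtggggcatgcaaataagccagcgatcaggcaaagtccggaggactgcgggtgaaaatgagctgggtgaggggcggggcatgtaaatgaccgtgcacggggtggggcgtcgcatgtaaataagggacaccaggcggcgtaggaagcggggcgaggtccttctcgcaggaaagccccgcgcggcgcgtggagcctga

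The Cd5l window held 1 STAT6-type match at its first base, 1 PU.1-type match and a pair of MAF half-sites on opposite strands, 54 and 46 bases before the start. One MAF half-site stood in each Folr2 window, 220 bases before the start at the upstream promoter and 19 before it at the downstream one. Mrc1 had 3 PU.1-type matches, and Trem2 had a PU.1-type match 40 bases and a nuclear receptor half-site 68 bases before its start. No match to any of the 6 motifs was found in the windows of Il4ra, Tgfb1 or Tgfbi, and no printed match overlapped another. Of 32851 promoter windows of this length, 28.3% held the PU.1-type motif, 19.5% the MAF half-site, 16.3% the nuclear receptor half-site, 8.3% the STAT-type, 6.95% the STAT6-type and 1.47% the NF-kB-type motif. Such matches describe letters in the window and are not measured binding sites.

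The anti-CD40 antibody moved most of the 9 genes in WT mice. In WT anti-CD40 against WT saline, 6 of the 9 fell (Trem2, Tyrobp, Folr2, Mrc1, Cd5l and Il10ra), 1 rose (Il4ra) and 2 were not called (edgeR, adjusted p), where 39.2% of all genes tested were called, 19.7% lower and 19.4% higher. Their median log2 fold was -1.36, against 0.05 over all genes. In sph/sph anti-CD40 against sph/sph saline none of the 9 was called by edgeR, where 0.78% of all genes were called (0.578% higher and 0.202% lower). An unadjusted p under 0.05 was found for 3 of the 9 (Trem2, Folr2 and Mrc1), against 21% of all genes (edgeR). DESeq2 called 1 (Folr2) and limma-voom 0. Without sph/sph anti-CD40 C, edgeR called 2 of the 9 (Trem2 and Mrc1) and 2372 genes in place of 108, and without any 1 sph/sph saline library it called none of either. The median log2 fold with all libraries was -0.37, against 0.04 over all genes.

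Genotype differences among the 9 were called under the antibody. In sph/sph anti-CD40 against WT anti-CD40, 4 of the 9 were higher (Trem2, Folr2, Mrc1 and Cd5l), Il4ra was lower and 4 were not called, where 17.7% of all genes were called, 11.5% higher and 6.19% lower. Erythroid markers followed genotype: the 10 summed to 4730 to 17400 CPM in sph/sph anti-CD40, 34.0 to 209 CPM in WT anti-CD40, 5660 to 9450 CPM in sph/sph saline and 73.9 to 328 CPM in WT saline. All 10 were called higher in sph/sph under either treatment (median log2 7.30 under anti-CD40 and 5.90 under saline), none was at 0 in all 3 libraries of a group, and their part in the results on the 9 genes was not tested. In saline mice, sph/sph against WT, edgeR called none of the 9, where 2.04% of all genes were called (1.6% higher and 0.433% lower). Tgfbi alone had an unadjusted p under 0.05, against 13.1% of all genes (edgeR). DESeq2 called 1 (Tgfbi) and limma-voom 0. The interaction, that is, the response of sph/sph less the WT response on the log2 scale, was called for 3 of the 9 (Folr2 and Cd5l positive, Il4ra negative), where 4.3% of all genes were called (3.18% positive and 1.12% negative). The 2 anti-CD40 comparisons and the 2 genotype comparisons share libraries in pairs, so they are not independent of each other.

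**Figure D1:**
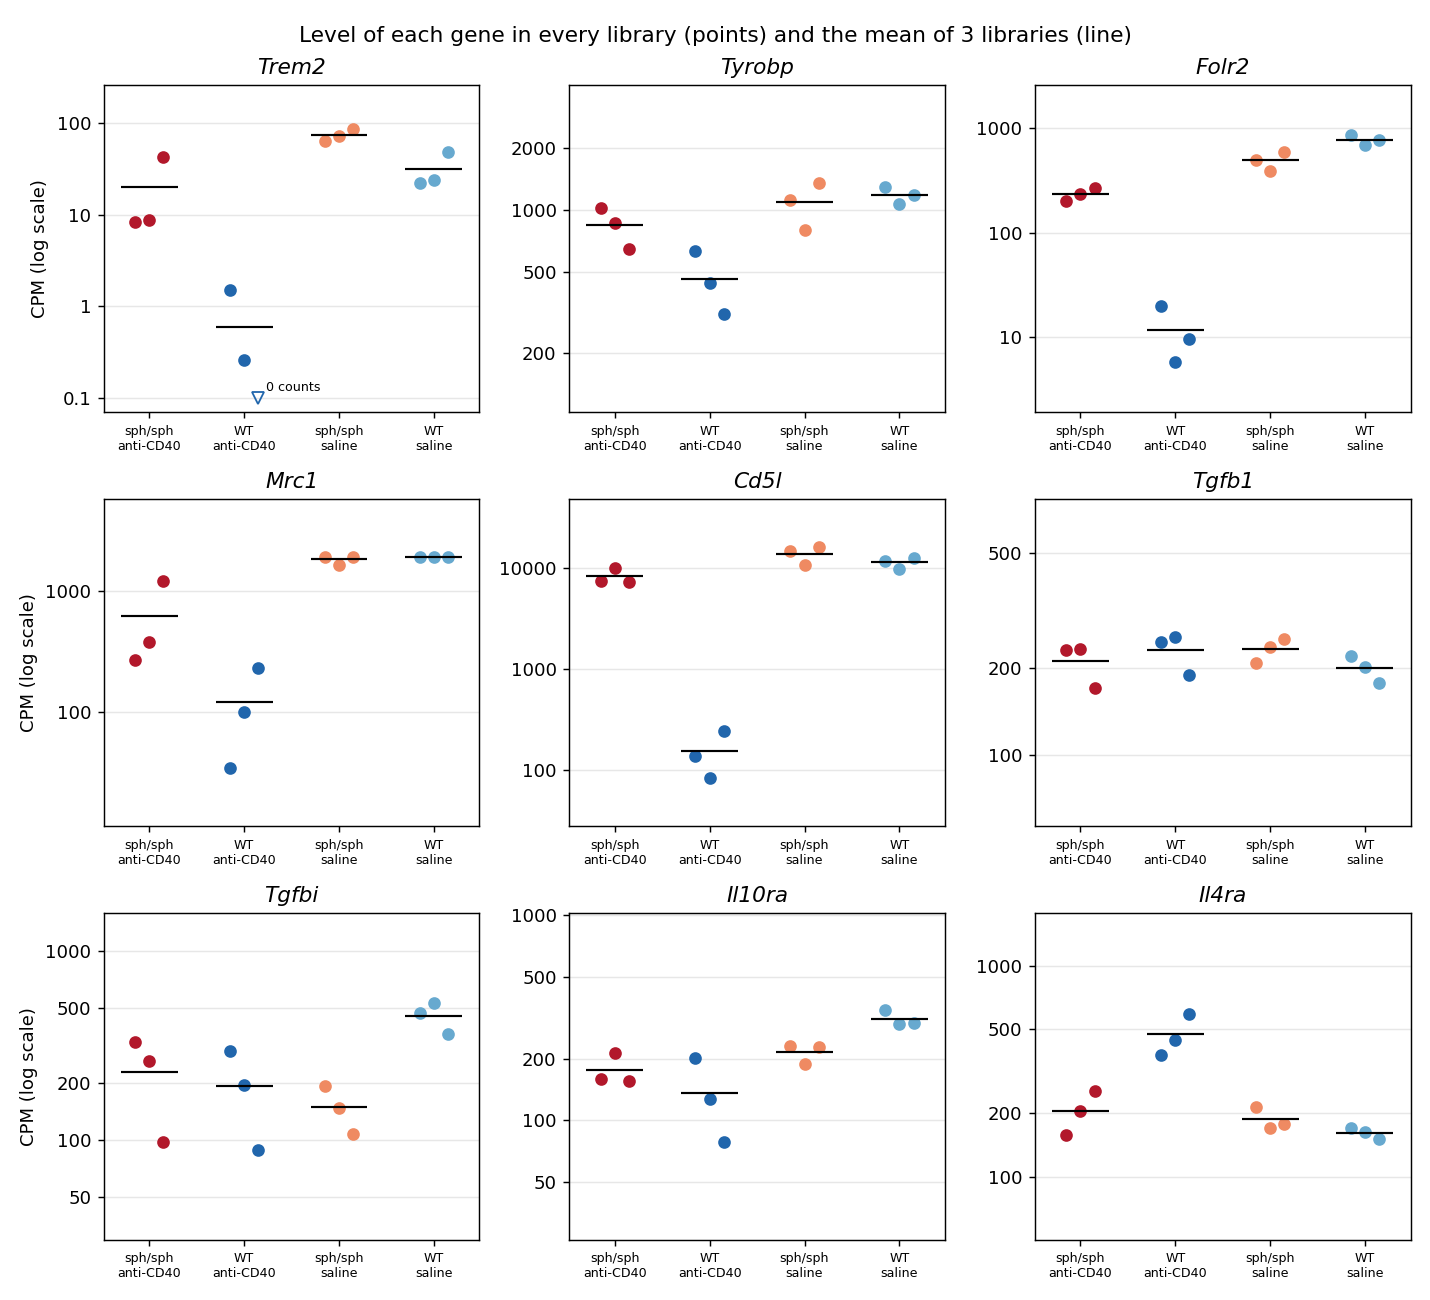
Level of each of the 9 genes in CPM on a log axis. Points are single libraries, 3 per group, and lines are group means, with sph/sph anti-CD40, WT anti-CD40, sph/sph saline and WT saline from left to right. Folr2 and Cd5l are at their lowest in WT anti-CD40, Il4ra stands highest in WT anti-CD40, and Tgfb1 lies between 171 and 258 CPM in all 12 libraries.

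Trem2, the lipid receptor, fell to a few counts in WT mice given anti-CD40 and was higher in sph/sph mice given the antibody. It had 8.29, 8.73 and 43.3 CPM in sph/sph anti-CD40, against 1.53, 0.262 and 0 CPM in WT anti-CD40. The WT anti-CD40 values stand for 23, 5 and 0 counts. All 3 sph/sph libraries lay above all 3 WT libraries, and library C of sph/sph anti-CD40 stood well above the other two. In saline mice Trem2 had 63.9, 72.9 and 87.6 CPM in sph/sph, against 22.6, 23.9 and 48.1 CPM in WT, again without overlap.

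Under the antibody Trem2 was 36.0-fold above WT in sph/sph (log2 5.17 ± 1.04 SE, adjusted p = 0.00818, edgeR). In WT it was 56.3-fold lower with anti-CD40 than with saline (log2 -5.81 ± 1.06, adjusted p = 0.00224, edgeR), a fold that rests on the few counts just given. In sph/sph the difference between anti-CD40 and saline was -1.89 on the log2 scale (95% interval -3.73 to -0.05, adjusted p = 0.227, edgeR) and was not called. The saline difference of sph/sph over WT was 1.25 (-0.56 to 3.05, adjusted p = 0.585, edgeR). The interaction was 3.93 with an adjusted p of 0.124 (edgeR), so a difference between the genotypes in the response of Trem2 was not called. Without sph/sph anti-CD40 C the fall within sph/sph was called (log2 -3.14, adjusted p = 0.0217, edgeR), and without WT anti-CD40 A (log2 5.98, adjusted p = 0.032, edgeR) or in DESeq2 (log2 3.82, adjusted p = 0.0365) the interaction was called. The genotype difference under anti-CD40 ran from 3.96 without sph/sph anti-CD40 C to 7.22 without WT anti-CD40 A, and the WT response was -7.87 without WT anti-CD40 A. Fitted on the 2 anti-CD40 groups alone, the genotype difference was close in size but was not called (log2 5.10, adjusted p = 0.0994, edgeR).

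In such bulk samples, fewer cells of a type and less RNA per cell cannot be told apart. With anti-CD40 in WT, and by genotype under the antibody, most Kupffer cell markers moved in the direction of Trem2, Folr2, Mrc1 and Cd5l. Il4ra moved the other way in both comparisons, and Tgfb1 was called in neither. The 11 markers of Kupffer cells summed to 17700 to 33100 CPM in sph/sph anti-CD40, 605 to 1220 CPM in WT anti-CD40, 28100 to 39300 CPM in sph/sph saline and 24400 to 29300 CPM in WT saline. Marco, a scavenger receptor in the list, made up much of the sph/sph sums, at 14800 ± 8220 CPM in sph/sph anti-CD40, 487 ± 218 CPM in WT anti-CD40, 11300 ± 1730 CPM in sph/sph saline and 654 ± 339 CPM in WT saline. Without Marco the other 10 summed to 7250 to 12000 CPM in sph/sph anti-CD40, 331 to 746 CPM in WT anti-CD40, 17800 to 25900 CPM in sph/sph saline and 24200 to 28300 CPM in WT saline, so sph/sph anti-CD40 lay between WT anti-CD40 and the saline groups. In sph/sph anti-CD40 against sph/sph saline the median log2 fold of the 11 was -0.99. Of them, 4 had an unadjusted p under 0.05 (edgeR), against 21% of all genes. Of the 11, 10 were lower with anti-CD40 in WT (90.9%, against 19.7% of all genes), at a median log2 of -5.56. By genotype under the antibody 10 were higher in sph/sph (90.9%, against 11.5% of all genes), at a median of 4.75. The interaction was called for 8 of the 11, all positive (72.7%, against 3.18% of all genes), at a median of 4.73. None of the 11 was at 0 in all 3 libraries of a group, and their part in the results on the 9 genes was not tested.

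Tyrobp, the DAP12 adaptor that serves TREM2 and several other receptors, moved far less than Trem2. Its levels were 1022, 866 and 642 CPM in sph/sph anti-CD40, against 627, 441 and 310 CPM in WT anti-CD40. The groups met closely, the lowest sph/sph library lying just above the highest WT one. Saline levels were 1118, 798 and 1356 CPM in sph/sph, against 1288, 1066 and 1182 CPM in WT, and overlapped. Tyrobp was 2.57-fold lower with anti-CD40 in WT (log2 -1.36 ± 0.30, adjusted p = 0.00561, edgeR). The genotype difference under anti-CD40 was 0.88 (95% interval 0.22 to 1.53, adjusted p = 0.0658, edgeR) and missed the threshold, as did the interaction of 0.99 (adjusted p = 0.229, edgeR). The genotype difference was called by DESeq2 (adjusted p = 0.0314), by edgeR with a term for sex (adjusted p = 0.0429), and without WT anti-CD40 A (log2 1.17, adjusted p = 0.0223) or without sph/sph anti-CD40 C (adjusted p = 0.032).

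Of 24 genes of TREM2 shedding and signalling, 4 were called in sph/sph against WT under anti-CD40 (16.7%, near the 17.7% of all genes), all 4 higher, with a list median log2 of 0.29 against 0.08 over all genes. Adam10, the protease that sheds TREM2 from the cell, averaged 260 ± 44.2 CPM in sph/sph anti-CD40 and 150 ± 13.4 CPM in WT anti-CD40 (log2 0.80 ± 0.17, adjusted p = 0.00964, edgeR), and its interaction was 1.14 ± 0.24 (adjusted p = 0.0239, edgeR). The phosphatase Inpp5d, which opposes DAP12 signalling, differed by 0.72 and the adaptor Dok3 by 1.41 (adjusted p = 0.011 and 0.00431, edgeR). With anti-CD40 in WT, 2 of the 24 rose (Malt1 and Ms4a4a) and 6 fell, a called share of 33.3% against 39.2% of all genes, at a median of -0.13.

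TREM2 ligands and genes of lipid-associated macrophages split in direction. Under anti-CD40, 7 of 20 were higher in sph/sph than in WT and 4 were lower, at a median log2 of 0.30. The called share was 55%, against 17.7% of all genes. Mmp12, a macrophage elastase, and Lpl, which hydrolyses lipoprotein triglycerides, were higher (log2 3.96 ± 0.76 and 2.10 ± 0.33, adjusted p = 0.00624 and 0.0023, edgeR). Itgax and Cst7, an integrin of activated macrophages and dendritic cells and a cathepsin inhibitor, were lower (log2 -3.64 ± 0.70 and -3.53 ± 0.57, adjusted p = 0.0064 and 0.00254, edgeR). In saline mice 5 of the 20 were called (25%, against 2.04% of all genes). All 5 were higher in sph/sph, at a list median of 0.51 against 0.01 over all genes. Among these the tetraspanin Cd9 averaged 74.2 ± 10.2 CPM in sph/sph saline and 15.9 ± 0.976 CPM in WT saline (log2 2.22 ± 0.12, adjusted p = 4.21e-05, edgeR). Gpnmb, Fabp5 and Cd63 were the other 3 with the largest differences, at 3.12, 2.52 and 2.41. Under anti-CD40, Cd9 and Cd63 were among the 4 called lower in sph/sph (log2 -0.64 and -1.57, adjusted p = 0.00466 and 0.0431, edgeR). The interaction was called for 5 of the 20 (25%, against 4.3% of all genes). Mmp12 was positive at 4.81, and 4 were negative, among them Cst7 at -5.71, Cd63 at -3.97 and Cd9 at -2.86. With anti-CD40 in WT, 8 of the 20 rose and 6 fell (70%, against 39.2% of all genes). Trem2 itself had its highest levels in sph/sph saline, but was not called there.

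A list of receptors drawn up around DAP12 also went both ways. Not all of its genes are established partners of DAP12, Ncr1 and Cd300ld being examples that are not. With anti-CD40 in WT, 6 of 17 tested rose, among them Ncr1 of natural killer cells, at 72.1 ± 76.0 CPM in WT anti-CD40 and 0.116 ± 0.0105 CPM in WT saline, and the myeloid receptor Clec5a (log2 5.70), and 6 fell, among them Cd300ld (log2 -4.61). The called share was 70.6%, against 39.2% of all genes. In sph/sph against WT under anti-CD40, 5 were higher, with Cd300ld at 3.21, Cd300c2 at 2.24 and Treml4 at 1.74. Ncr1 was lower at -4.80, and the called share was 35.3%, against 17.7% of all genes. Cd300ld is an Ig-like receptor of myeloid cells and averaged 373 ± 62.9 CPM in sph/sph anti-CD40 and 40.5 ± 17.4 CPM in WT anti-CD40. Its interaction was called (log2 3.80 ± 0.41, adjusted p = 0.000812, edgeR). Markers of T and NK cells, which include Ncr1, summed to 5.1 to 116 CPM in sph/sph anti-CD40 and 194 to 1480 CPM in WT anti-CD40, and their part in this difference was not tested.

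Folr2, the folate receptor of resident macrophages, gave with Cd5l the clearest genotype difference of the 9. It had 199, 232 and 269 CPM in sph/sph anti-CD40, against 19.8, 5.77 and 9.55 CPM in WT anti-CD40. The lowest sph/sph library was far above the highest WT library. In saline mice it had 494, 385 and 594 CPM in sph/sph, against 862, 694 and 775 CPM in WT, so that without the antibody the sph/sph libraries lay below the WT ones.

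Under anti-CD40 Folr2 was 20.0-fold above WT in sph/sph (log2 4.32 ± 0.42, adjusted p = 0.000157, edgeR). With anti-CD40 it was 66.5-fold lower in WT (log2 -6.05 ± 0.45, adjusted p = 1.75e-05, edgeR), and its difference in sph/sph was -1.07 (95% interval -1.89 to -0.26, adjusted p = 0.147, edgeR), called by DESeq2 alone (log2 -1.11, adjusted p = 0.0418). The responses of the genotypes differed by 4.98 ± 0.55 (adjusted p = 0.000879, edgeR). Without WT anti-CD40 A, the highest of its group, these values were 4.93, -6.66 and 5.59 for genotype under anti-CD40, the WT response and the interaction. Under saline the genotype difference was -0.66 (-1.47 to 0.15, adjusted p = 0.496, edgeR). An antisense gene, Gm10602, shares 975 exonic bases with Folr2 and is not analysed here; whether counting used strand is not stated in those sources, so reads from both would be counted together if strand was ignored.

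Of 15 genes of folate uptake and use, 2 were called in sph/sph against WT under anti-CD40 (13.3%, near the 17.7% of all genes), both higher: the proton-coupled folate transporter Slc46a1 (log2 2.09 ± 0.33, adjusted p = 0.00238, edgeR) and the methionine synthase Mtr (log2 1.38 ± 0.15, adjusted p = 0.000296, edgeR). The list's median was 0.18, against 0.08 over all genes. With anti-CD40 in WT 5 of the 15 were called (33.3%, near the 39.2% of all genes): Slc46a1 and Mtr were 2 of the 3 that fell (log2 -2.68 and -2.31), and Mthfd2, a mitochondrial folate enzyme of dividing and activated cells, was 1 of the 2 that rose (log2 3.21). The interaction of Mtr was 1.74 (adjusted p = 0.00144, edgeR).

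Mrc1, the mannose receptor CD206, showed the same order of groups with a wider spread. It had 266, 377 and 1215 CPM in sph/sph anti-CD40, against 34.2, 100 and 229 CPM in WT anti-CD40. Groups did not overlap, but the highest WT library came close to the lowest sph/sph library, and sph/sph anti-CD40 C was again far above A and B. Saline levels were tight and alike, at 1905, 1637 and 1909 CPM in sph/sph and 1898, 1901 and 1920 CPM in WT (difference -0.07 on the log2 scale, 95% interval -1.50 to 1.36).

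Mrc1 was 5.11-fold above WT in sph/sph under anti-CD40 (log2 2.35 ± 0.68, adjusted p = 0.0382, edgeR). With anti-CD40 it was 15.7-fold lower in WT (log2 -3.97 ± 0.73, adjusted p = 0.00233, edgeR) and differed by -1.55 in sph/sph (95% interval -3.02 to -0.08, adjusted p = 0.215, edgeR). The interaction was 2.42 (adjusted p = 0.187, edgeR). The genotype call was lost when any of 9 of the 12 libraries was left out (adjusted p 0.0224 to 0.121 over the 12 fits; log2 1.41 without sph/sph anti-CD40 C to 3.21 without WT anti-CD40 C) on the 2 anti-CD40 groups alone (adjusted p = 0.195) and with only the 8 libraries that hold Y-linked counts (adjusted p = 0.085). The WT response was -4.86 without WT anti-CD40 C. Without sph/sph anti-CD40 C the fall within sph/sph was called (log2 -2.50, adjusted p = 0.0282, edgeR).

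Sinusoidal endothelial cells of the liver also carry the mannose receptor. The 10 markers of these cells summed to 914, 1340 and 2660 CPM in sph/sph anti-CD40 A, B and C and to 3530, 4340 and 7290 CPM in WT anti-CD40 A, B and C. Within each of these groups the library order of that sum was the order of Mrc1, while between the groups the sum was higher in WT, where Mrc1 was lower. In saline mice the sums of A, B and C were 2260, 2570 and 949 CPM in sph/sph and 1620, 3820 and 2930 CPM in WT. Neither saline group had the library order of Mrc1. B cell markers summed to 2190 CPM in sph/sph anti-CD40 C, against 51.5 to 371 CPM in the other 5 anti-CD40 libraries. No marker of either list was at 0 in all 3 libraries of a group, and the part of these cells in the Mrc1 and Trem2 levels was not tested.

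Other endocytic lectins were called in both directions. Of 14 tested, 2 were higher in sph/sph than in WT under anti-CD40 and 3 were lower, at a median log2 of 0.10. The called share was 35.7%, against 17.7% of all genes. Clec1b, a lectin of platelets and Kupffer cells, and Clec4n (Dectin-2), a receptor for fungal mannans, were higher (log2 2.92 and 2.27, adjusted p = 0.00106 and 0.00343, edgeR). Lyve1, a hyaluronan receptor of endothelium and some macrophages, and Ly75 (DEC-205), a dendritic cell relative of Mrc1, were lower (log2 -5.30 and -2.99, adjusted p = 0.0015 and 0.0119, edgeR). In saline mice 2 of the 14 were called (14.3%, against 2.04% of all genes). Clec4n was higher in sph/sph (log2 2.40 ± 0.39, adjusted p = 0.0127, edgeR), at 1030 ± 323 CPM against 195 ± 41.6 CPM in WT. Cd209g was lower (log2 -4.75 ± 0.76, adjusted p = 0.0209, edgeR). In WT anti-CD40 against WT saline, 4 of the 14 fell and 2 rose (42.9%, near the 39.2% of all genes). Clec1b fell by 4.03 on the log2 scale (adjusted p = 0.000102, edgeR), and Ly75 averaged 218 ± 114 CPM in WT anti-CD40 and 0.558 ± 0.372 CPM in WT saline (adjusted p = 9.89e-05, edgeR).

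Cd5l, a secreted scavenger-receptor protein that protects macrophages from apoptosis, was the most abundant of the 9 and the one with the largest genotype difference under the antibody. It had 7471, 9990 and 7327 CPM in sph/sph anti-CD40, against 136, 82.9 and 241 CPM in WT anti-CD40. Every sph/sph library exceeded every WT library many times over. In saline mice it had 14810, 10770 and 16250 CPM in sph/sph, against 11860, 9849 and 12500 CPM in WT, and the groups overlapped.

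Under anti-CD40 Cd5l was 54.0-fold above WT in sph/sph (log2 5.75 ± 0.45, adjusted p = 5.12e-05, edgeR). With anti-CD40 it was 74.5-fold lower in WT (log2 -6.22 ± 0.46, adjusted p = 1.57e-05, edgeR), while in sph/sph the difference was -0.75 (95% interval -1.57 to 0.06, adjusted p = 0.268, edgeR). The responses differed by 5.46 ± 0.55 (adjusted p = 0.000538, edgeR). Without the antibody the genotypes differed by 0.29 (-0.52 to 1.10, adjusted p = 0.803, edgeR). Both Cd5l and Folr2 kept these calls in all 12 fits that left out 1 library.

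Genes that encode scavenger-receptor cysteine-rich proteins or regulators of Cd5l numbered 11 tested. In sph/sph against WT under anti-CD40, 5 of them were called (45.5%, against 17.7% of all genes). All 5 were higher, at a list median log2 of 0.91 against 0.08 over all genes. Cd163, which takes up haemoglobin-haptoglobin complexes, averaged 268 ± 150 CPM in sph/sph anti-CD40 and 0.529 ± 0.521 CPM in WT anti-CD40 (log2 9.04 ± 0.81, adjusted p = 0.000103, edgeR). In saline mice Cd163 averaged 614 ± 178 CPM in sph/sph and 2430 ± 629 CPM in WT. The nuclear receptors Nr1h3 (LXR alpha) and Rxra, which induce Cd5l in mouse macrophages, differed by 1.69 and 1.81 under the antibody (adjusted p = 0.0235 and 0.000514, edgeR). Interactions were called for Rxra (1.85) and for Cd163, whose size rests on the level near 0 in WT anti-CD40. Cd163 and Nr1h3 are also in the Kupffer cell list.

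**Figure D2:**
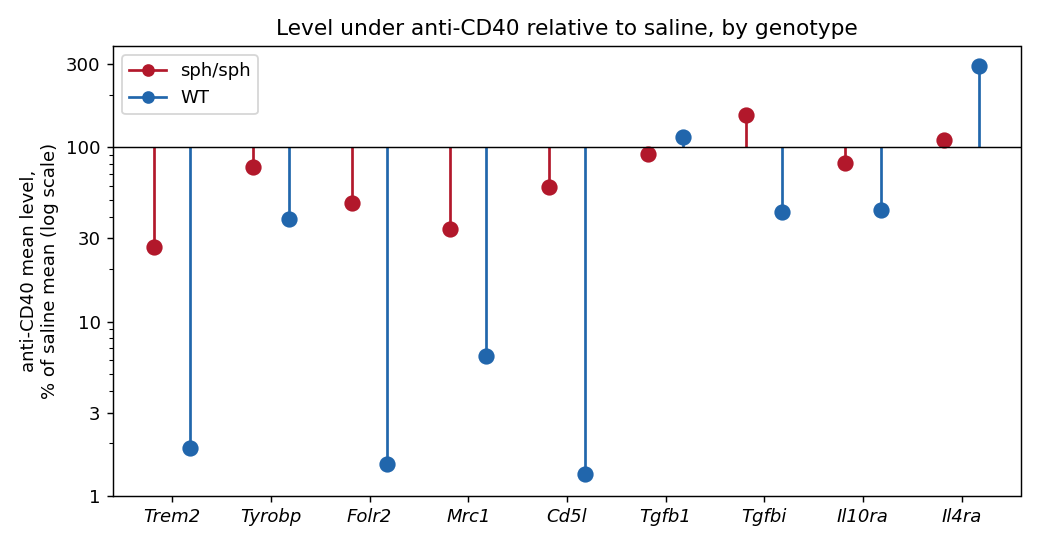
Mean level under anti-CD40 as a percent of the saline mean of the same genotype (log axis) for each of the 9 genes, with sph/sph in red on the left and WT in blue on the right, and stems drawn from 100%. Cd5l stood at 59.3% in sph/sph and 1.34% in WT, Folr2 at 47.6% in sph/sph and 1.51% in WT, and Il4ra at 110% in sph/sph and 292% in WT.

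Expressed as the share of the saline mean that remained with anti-CD40, Cd5l, Folr2, Mrc1 and Trem2 had larger shares in sph/sph than in WT. The interaction was called for Cd5l and Folr2 but not for Mrc1 or Trem2. Cd5l retained 59.3% in sph/sph and 1.34% in WT, and Folr2 retained 47.6% in sph/sph and 1.51% in WT. Mrc1 kept 34.1% in sph/sph and 6.36% in WT, and Trem2 kept 26.9% in sph/sph and 1.89% in WT. Tyrobp stood at 77.3% in sph/sph and 38.9% in WT, and Il10ra at 81.3% in sph/sph and 43.5% in WT. Tgfb1 was at 91.1% in sph/sph and 115% in WT, Tgfbi at 153% in sph/sph and 42.5% in WT, and Il4ra at 110% in sph/sph and 292% in WT. These are ratios of means of 3 libraries and carry no test beyond the interaction given with each gene.

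Tgfb1, the cytokine TGF-beta 1, stayed within a narrow range across the study. It had 232, 234 and 171 CPM in sph/sph anti-CD40, 247, 258 and 189 CPM in WT anti-CD40, 209, 237 and 253 CPM in sph/sph saline, and 221, 202 and 179 CPM in WT saline. All 4 groups overlapped. None of its 5 differences was called: with anti-CD40 it differed by 0.21 in WT (95% interval -0.19 to 0.60, adjusted p = 0.376, edgeR) and by -0.13 in sph/sph (-0.53 to 0.26), and by genotype by -0.12 under anti-CD40 (-0.52 to 0.27) and 0.22 under saline (-0.18 to 0.61). None of these 4 intervals reached beyond 0.61 on the log2 scale in either direction, and the interaction was -0.34 (-0.90 to 0.22, adjusted p = 0.52, edgeR).

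Tgfbi, a matrix protein induced by TGF-beta, varied more between the groups than Tgfb1 did. It had 328, 262 and 97.6 CPM in sph/sph anti-CD40, against 296, 195 and 89.1 CPM in WT anti-CD40, with wide overlap. In saline mice it had 193, 149 and 108 CPM in sph/sph, against 470, 532 and 362 CPM in WT, and every sph/sph library lay below every WT library. The saline difference was -1.60 ± 0.49 (95% interval -2.70 to -0.51), with an unadjusted p of 0.00836 and an adjusted p of 0.155 (edgeR), so it was not called. It was called by DESeq2 (log2 -1.61, adjusted p = 0.0246) and by edgeR on the 2 saline groups alone (log2 -1.62, adjusted p = 0.0188). The anti-CD40 difference was -1.24 in WT (adjusted p = 0.068, edgeR) and 0.62 in sph/sph (adjusted p = 0.484, edgeR), with an interaction of 1.85 (0.33 to 3.38, adjusted p = 0.173, edgeR). Markers of monocytes, which can also make Tgfbi, summed to 1780, 1120 and 426 CPM in sph/sph anti-CD40 A, B and C and to 1720, 1790 and 873 CPM in WT anti-CD40 A, B and C, so the C libraries were lowest for both the markers and Tgfbi. In saline mice the sums were 351, 213 and 178 CPM in sph/sph and 231, 208 and 363 CPM in WT. None of the 10 monocyte markers was at 0 in all 3 libraries of a group, and their part in the Tgfbi levels was not tested. The WT response of Tgfbi was called by DESeq2 (adjusted p = 0.0316), with a term for sex (adjusted p = 0.0318), and without WT anti-CD40 A (log2 -1.68, adjusted p = 0.0344) or sph/sph anti-CD40 C (adjusted p = 0.0222). Without sph/sph anti-CD40 C the interaction was called as well (log2 2.24, adjusted p = 0.047, edgeR).

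Of 28 other TGF-beta pathway genes tested, 7 were lower and 1 was higher in sph/sph than in WT under anti-CD40, and 20 were not called. The called share was 28.6%, against 17.7% of all genes (6.19% lower and 11.5% higher). The list had a median log2 of -1.07 against 0.08 over all genes. Itgb8, an integrin subunit that helps release active TGF-beta, averaged 0.189 ± 0.164 CPM in sph/sph anti-CD40 and 9.12 ± 9.44 CPM in WT anti-CD40 (adjusted p = 0.014, edgeR). Pmepa1, a feedback inhibitor, averaged 1.19 ± 0.981 CPM in sph/sph anti-CD40 and 21.5 ± 2.39 CPM in WT anti-CD40 (log2 -4.14 ± 0.60, adjusted p = 0.00148, edgeR). The signal transducer Smad3 differed by -1.75 ± 0.22 and the receptor Tgfbr1 by -1.49 ± 0.35 (adjusted p = 0.000578 and 0.017, edgeR). Pmepa1 was also lower in sph/sph under saline (log2 -2.71 ± 0.57, adjusted p = 0.0399, edgeR), at 1.18 ± 0.482 CPM against 7.73 ± 3.01 CPM in WT. No other gene of the 28 was called under saline (3.57% called, against 2.04% of all genes). With anti-CD40 in WT, 7 of the 28 rose and 4 fell, at a median of 0.30. That called share was 39.3%, near the 39.2% of all genes. The only called interaction in the list was that of Furin, which processes the TGF-beta precursor, at -1.06 ± 0.19 (adjusted p = 0.0125, edgeR). Several of these genes are also expressed by endothelial cells, whose marker sums are given with Mrc1, and the part of those cells was not tested.

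Il10ra, the ligand-binding chain of the interleukin-10 receptor, fell with the antibody in WT. It had 158, 212 and 155 CPM in sph/sph anti-CD40, against 202, 127 and 78.2 CPM in WT anti-CD40, and the groups overlapped. Saline levels were 231, 189 and 227 CPM in sph/sph, against 344, 294 and 297 CPM in WT, without overlap. With anti-CD40 it was 2.30-fold lower in WT (log2 -1.20 ± 0.29, adjusted p = 0.00932, edgeR) and differed by -0.30 in sph/sph (95% interval -0.94 to 0.34, adjusted p = 0.575, edgeR). The genotype difference was 0.37 under anti-CD40 (adjusted p = 0.422, edgeR) and -0.53 under saline (adjusted p = 0.485, edgeR). The interaction was 0.90 (0 to 1.80, adjusted p = 0.266, edgeR). Without WT anti-CD40 A, the highest of its group, the interaction (log2 1.31, adjusted p = 0.0378, edgeR) and the genotype difference under anti-CD40 (log2 0.77, adjusted p = 0.0484, edgeR) were called.

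Interleukin-10 itself differed by genotype under the antibody. Il10 averaged 36.8 ± 30.7 CPM in sph/sph anti-CD40 and 3.02 ± 0.811 CPM in WT anti-CD40 (log2 3.60 ± 0.98, adjusted p = 0.0299, edgeR). Libraries of sph/sph anti-CD40 ran from 1.35 to 54.9 CPM, so at least 1 of them lay below all 3 WT libraries, which ran from 2.17 to 3.78 CPM. In all, 2 of the 15 genes of the interleukin-10 pathway were higher in sph/sph than in WT under anti-CD40 and 3 were lower. Their called share was 33.3%, against 17.7% of all genes, and the list median was -0.35. Ddit4, a stress-induced inhibitor of mTOR signalling, was the other higher gene (log2 2.81), and the repressors Etv3 and Sbno2 were lower (log2 -1.05 and -0.88). With anti-CD40 in WT, 9 of the 15 rose and 2 fell (73.3%, against 39.2% of all genes), at a median of 1.23. The signalling inhibitor Socs3 stood at 4.36 ± 0.53 (adjusted p = 0.000249, edgeR).

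Il4ra, the chain shared by the receptors for interleukin-4 and interleukin-13, was the one gene of the 9 that rose. It had 158, 205 and 255 CPM in sph/sph anti-CD40, against 378, 446 and 593 CPM in WT anti-CD40. Every WT library lay above every sph/sph library. Saline levels were 215, 171 and 178 CPM in sph/sph, against 171, 163 and 152 CPM in WT, with the closest pair of libraries nearly equal.

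With anti-CD40 Il4ra was 2.92-fold higher in WT (log2 1.55 ± 0.22, adjusted p = 0.000536, edgeR) and differed by 0.13 in sph/sph (95% interval -0.34 to 0.60, adjusted p = 0.763, edgeR). Under the antibody it was 2.29-fold lower in sph/sph than in WT (log2 -1.20 ± 0.22, adjusted p = 0.00457, edgeR). The interaction was -1.41 ± 0.30 (adjusted p = 0.0296, edgeR), and its call was lost when any of 9 of the 12 libraries was left out (adjusted p 0.0136 to 0.0912 over the 12 fits) and with only the 8 libraries that hold Y-linked counts (adjusted p = 0.141). On the 2 anti-CD40 groups alone the genotype difference was not called (adjusted p = 0.0753, edgeR). An antisense gene, Gm44876, shares 571 exonic bases with Il4ra and is not among the genes of the count table. Lymphocytes carry Il4ra too, and markers of T and NK cells were higher in WT anti-CD40 by the sums given with the DAP12 list. Markers of B cells did not follow: they summed to 51.5 to 2190 CPM in sph/sph anti-CD40 and 56.1 to 371 CPM in WT anti-CD40. Their median log2 was 1.85 in sph/sph over WT, with 0 called. The part of lymphocytes in the Il4ra result was not tested.

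Of 14 other genes tested in the interleukin-4 and interleukin-13 receptor pathway, 5 rose with anti-CD40 in WT and 1 fell. The called share was 42.9%, near the 39.2% of all genes, and the list median log2 was 0.37. Socs1, an inhibitor of cytokine signalling that interferon also induces, rose by 5.06 ± 0.74 and the shared cytokine receptor chain Il2rg by 2.50 ± 0.37 (adjusted p = 0.000652 and 0.00073, edgeR). In sph/sph against WT under anti-CD40, 3 of the 14 were lower: Socs1 at -2.96 and the kinases Jak2 at -1.07 and Jak3 at -0.96. The adaptor Irs2 was the 1 higher gene, at 1.61. The called share was 28.6%, against 17.7% of all genes. Jak2 averaged 118 ± 22.9 CPM in sph/sph anti-CD40 and 248 ± 15.2 CPM in WT anti-CD40, with a called interaction of -0.98 (adjusted p = 0.0343, edgeR). Among 22 tested target genes of alternative activation, 5 were higher and 1 lower in sph/sph than in WT under anti-CD40. The called share was 27.3%, against 17.7% of all genes, and the list median was -0.40. The chemokine Ccl24 (log2 3.27), the inhibitory receptor Cd200r1 (log2 1.65) and the lectin Clec10a (log2 1.65) were higher, and the transcription factor Egr2 was lower (log2 -2.62). With anti-CD40 in WT, 12 of the 22 were called (54.5%, against 39.2% of all genes), at a median of -0.01. Of these, 7 rose, among them Ccl22 (log2 8.14), Chil3 (log2 4.59) and Cdh1 (log2 3.36). The other 5 fell, among them Ccl24 (log2 -5.43).

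**Figure D3:**
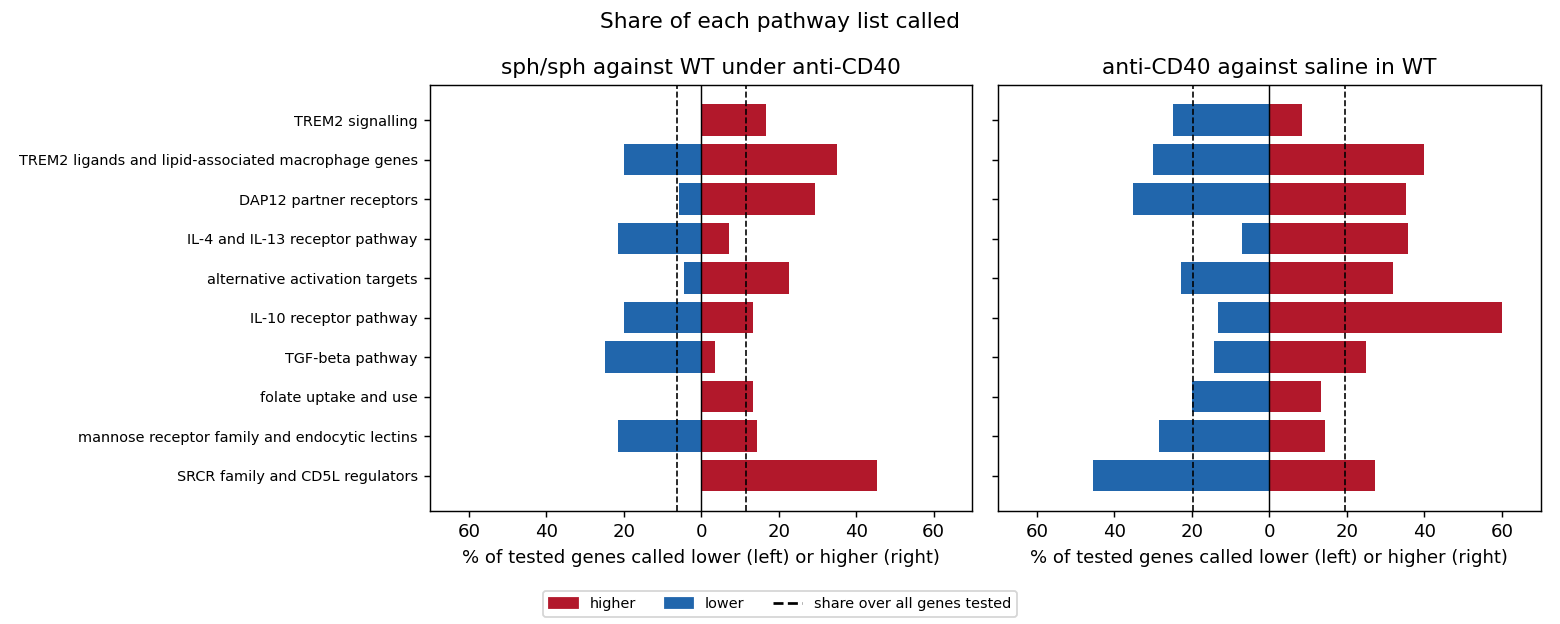
Share of the tested genes of each of the 10 pathway lists that edgeR called lower (blue, to the left) or higher (red, to the right), in sph/sph against WT under anti-CD40 and in anti-CD40 against saline in WT. Dashed lines mark the shares over all genes tested, 6.19% lower and 11.5% higher in the first panel and 19.7% lower and 19.4% higher in the second; under anti-CD40 the relatives and regulators of Cd5l have 5 of 11 genes higher, and the TGF-beta pathway has 7 of 28 lower.

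**Figure D4:**
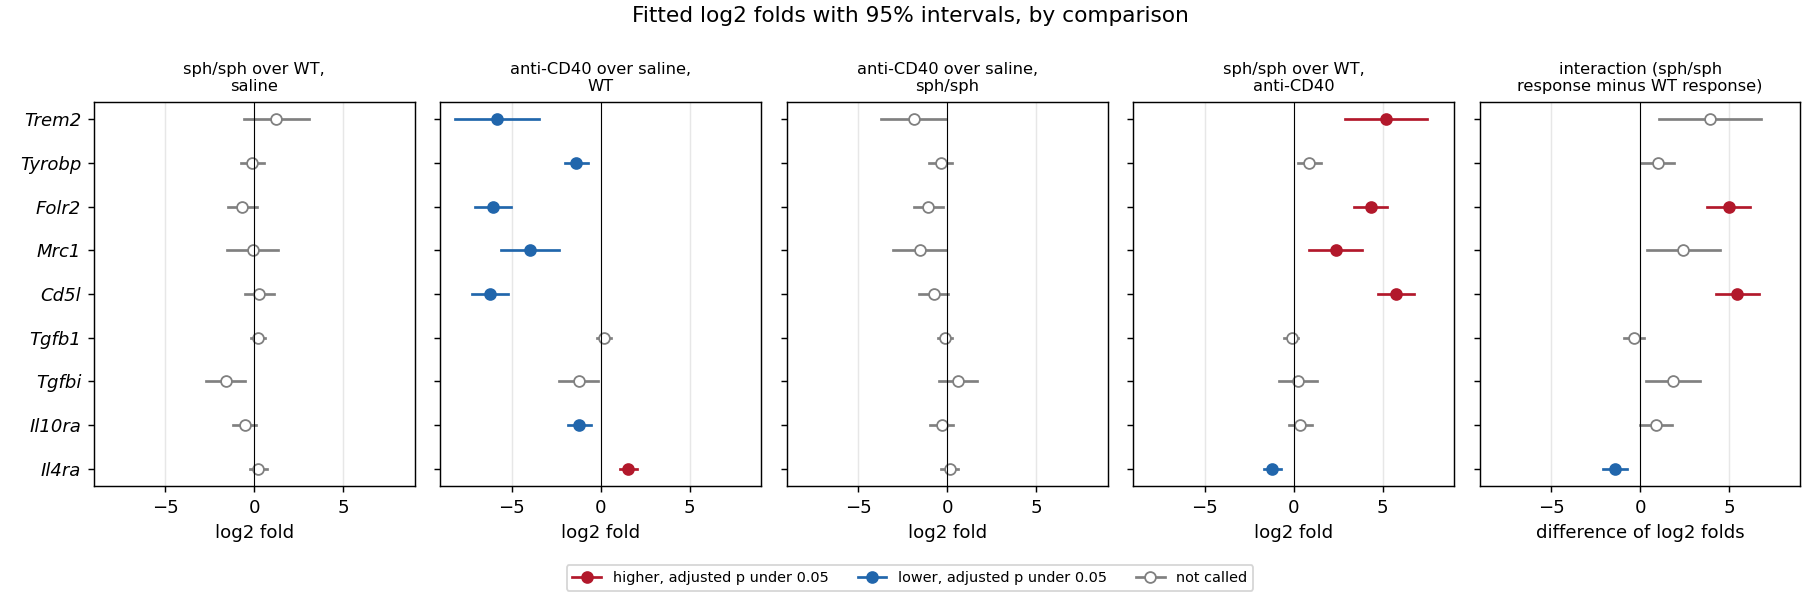
Log2 fold with its 95% interval for each of the 9 genes in the 4 comparisons and the interaction. Filled points were called by edgeR at an adjusted p under 0.05. Folr2 and Cd5l have the largest interactions, 4.98 and 5.46, and Il4ra is the only called negative one.

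Groups without overlap were counted for the 9 genes. In sph/sph against WT under anti-CD40, 6 of the 9 did not overlap, against 28.4% of all genes tested, and under saline 5 of the 9, against 31%. With anti-CD40 against saline, 8 of the 9 did not overlap in WT, against 57.3% of all genes, and 4 of the 9 in sph/sph, against 21.7%. Tgfb1 was the gene that overlapped in all 4 comparisons.

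Levels of different genes were compared per kilobase of merged exons. In WT saline Cd5l ranked 2 of 13830 genes at 5600 CPM per kb, with Tyrobp at 1770, Folr2 at 503, Mrc1 at 299, Tgfbi at 121, Il10ra at 89.1, Tgfb1 at 39.8, Il4ra at 27.0 and Trem2 at 6.37 CPM per kb. Cd5l ranked 9 in sph/sph anti-CD40 (4060 CPM per kb), 625 in WT anti-CD40 (75.2 CPM per kb) and 2 in sph/sph saline (6850 CPM per kb). Tyrobp kept a rank between 22 and 38 in all 4 groups. Folr2 ranked 307 in sph/sph anti-CD40, 5481 in WT anti-CD40, 115 in sph/sph saline and 66 in WT saline. Per kilobase of the longest coding transcript Trem2 was at 29.0 CPM in WT saline, still the lowest of the 9, since its merged exons span 4946 bases and that transcript 1088.

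For each of the 9, the 3 genes with the most similar profile over the 12 libraries were found by Pearson's r of log2 CPM among the other 13843 genes tested. The libraries fall into 4 groups, so these values describe likeness of group pattern. Folr2 was most like Cd300ld (0.999), Fgd2 (0.995) and Syp (0.994), and Cd5l was most like Slc16a9 (0.997), Slc40a1 (0.997) and Ear2 (0.992). Mrc1 was most like Jmy (0.993), Acsf2 and Mxi1, and Trem2 was most like Bphl (0.984), Cep164 and Tmem135. For Tyrobp the leading gene was Platr17 (0.983), for Il10ra Lpcat2 (0.968), for Il4ra Tbc1d30 (0.962), for Tgfbi Fxyd2 (0.908) and for Tgfb1 Grina (0.894).

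On GRCm38, in the GENCODE M21 annotation, the genes lie as follows. Trem2 (ENSMUSG00000023992) is at chr17:48346401-48354147, and Tyrobp (ENSMUSG00000030579) at chr7:30413760-30417585, both on the plus strand. Folr2 (ENSMUSG00000032725) is at chr7:101839988-101857194 on the minus strand, and Mrc1 (ENSMUSG00000026712) at chr2:14229392-14332057 on the plus strand. Cd5l (ENSMUSG00000015854) is at chr3:87357881-87371073, Tgfb1 (ENSMUSG00000002603) at chr7:25687002-25705077 and Tgfbi (ENSMUSG00000035493) at chr13:56609523-56639562, all on the plus strand. Il10ra (ENSMUSG00000032089) is at chr9:45253837-45269149 on the minus strand, and Il4ra (ENSMUSG00000030748) at chr7:125552120-125579474 on the plus strand. Counts are over the exons of each gene.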

How the data were processed

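RNA of 12 libraries, 3 mice per group by the design text, was prepared with a stranded kit per the labels' protocols. The authors deposited raw read counts per gene. The submitters' processing notes name the build GRCm38.p5 and the tools featureCounts, STAR 2.7.0e and SAMtools 1.9, without roles. No source used here gives the annotation, the strand setting or the handling of multiply mapping reads. From the deposited counts, edgeR 4.0.16 (R 4.3.3) was run with filterByExpr by group (13844 of 25700 genes kept), TMM scaling, robust quasi-likelihood fitting of the 12 libraries (common biological coefficient of variation 0.382) and Benjamini-Hochberg adjustment over all genes tested. SE was taken as the absolute log2 fold over the root of F, and 95% intervals use edgeR's degrees of freedom. CPM use TMM-scaled library sizes. Of the identifiers, 25587 matched a symbol. Alternatives were RLE size factors, no filter, DESeq2 1.42.0, limma-voom (limma 3.58.1), only the groups compared, a term for sex from Y-linked counts and leaving out each library. The 9 genes and the 10 pathway and 10 marker lists were chosen with earlier results of these data known. By rule, up to 4 called genes with the largest log2 folds were named per list and comparison, and 3 genes most like each of the 9. A gene that the rule names is not reported here. The fit was tested on simulated data.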

Additional observations from a re-analysis of the deposited data

Results flagged for a closer look

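The response to anti-CD40 differed between the genotypes, by the interaction in edgeR, for 3 of the 9 genes, where 4.3% of all genes tested were called. Their interaction was 4.98 on the log2 scale for Folr2 (adjusted p = 0.000879), 5.46 for Cd5l (adjusted p = 0.000538) and -1.41 for Il4ra (adjusted p = 0.0296). For Folr2 and Cd5l the anti-CD40 libraries of sph/sph all lay above those of WT, and for Il4ra they all lay below. Of the 11 Kupffer cell markers, 8 also had a called positive interaction, at a list median of 4.73, and their part was not tested. The Il4ra call was lost when any of 9 of the 12 libraries was left out (adjusted p 0.0136 to 0.0912 over the 12 fits) and with only the 8 libraries that hold Y-linked counts (adjusted p = 0.141).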

How the results depend on the processing

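No paired analysis was possible because the columns of the count table carry no replicate number and only the A libraries share an identification number, 1 pair per treatment. With 3 libraries per group, 1 library can decide a call. Of the 9 genes, the fits that left out 1 library called 4 to 6 for genotype under anti-CD40, 7 to 8 for anti-CD40 in WT, 0 to 2 in sph/sph, 2 to 5 (5 without WT anti-CD40 A) for the interaction and 0 for genotype under saline. Only the groups compared gave 2 for genotype under anti-CD40 (Folr2 and Cd5l) and 1 under saline, and DESeq2 gave 1 in sph/sph and 1 under saline. Over all genes, leaving out 1 library gave 1355 to 3408 calls for genotype under anti-CD40 (2455 with all), 3841 to 6583 for anti-CD40 in WT (5420), 0 (without any 1 sph/sph saline library) to 2372 (without sph/sph anti-CD40 C) in sph/sph (108), 259 to 944 for the interaction (595) and 73 to 539 under saline (282). DESeq2 called 1308 in sph/sph, 1378 for the interaction and 823 under saline. Only the groups compared gave 735 for genotype under anti-CD40, 0 in sph/sph and 891 under saline. With only the 8 libraries that hold Y-linked counts, an alternative chosen after seeing the data, 1174 were called for genotype under anti-CD40, 2845 for anti-CD40 in WT, 0 in sph/sph, 153 for the interaction and 13 under saline; of the 9 genes it called 4, 7, 0, 2 and 0 in the same order. The cause was not tested; some fits on fewer libraries gave more calls. Some small differences changed sign when 1 library was left out: Il4ra in sph/sph (-0.06 to 0.29), Mrc1 under saline (-0.11 to 0), Tyrobp under saline (-0.30 to 0.07), and under anti-CD40 Tgfb1 (-0.24 to 0.02) and Tgfbi (-0.10 to 0.69) by genotype. The cause was not tested, and none of these was called. No other alternative turned a direction of the 9 genes.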
